A study of Mus musculus with 6 samples.

Results

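The let-7 passenger arms, the 3p strands of the let-7 hairpins, were described here in small extracellular vesicles (small EVs) and in T cell blasts. The 8 rows of the deposited miRNA table that name a let-7 3p arm were taken by name, 8 of 451 miRNAs in all: mmu-let-7a-1-3p, mmu-let-7b-3p, mmu-let-7c-2-3p, mmu-let-7d-3p, mmu-let-7f-1-3p, mmu-let-7f-2-3p, mmu-let-7g-3p and mmu-let-7i-3p, written below without the species prefix. The series holds 3 small EV libraries and 3 T cell blast libraries, numbered 1, 2 and 5 in both groups. All 6 came from wild-type C57BL/6 mice, whose splenocytes, taken at 8 to 12 weeks of age, were stimulated with concanavalin A (2 µg/ml), a plant lectin used to activate T cells, and washed after 36 h. Cells were then kept in 50 U/ml IL-2 with 10% EXO-free FBS. Vesicles were collected by ultracentrifugation of the supernatant of 6-day cultures, with a last spin at 100000 g. The blasts were grown from total splenocytes rather than from sorted T cells, and the labels do not say whether each library came from 1 mouse or from a pool. RNA of both fractions was read by small RNA sequencing, and no library received any other treatment.

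A let-7 hairpin is cut by Drosha and then by Dicer into a short duplex, and 1 strand of it is kept by an Argonaute protein. For most let-7 hairpins the kept strand, or guide, is the 5p arm, which binds target mRNAs through its seed, bases 2 to 8, and represses genes such as Hmga2 and Ras family members, while the 3p arm is the passenger. Several loci make the same guide: let-7a-5p, let-7c-5p and let-7f-5p each come from more than 1 hairpin in the mouse. The 3p arms differ more between loci and are therefore named by locus. In mouse CD8+ T cells, let-7 guides are known to be abundant before activation and to decline after it.

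The mature sequences of the 8 arms are printed because they decide which loci can be told apart. All 8 names matched the RefSeq miRNA table of GRCm38.p6, and capitals mark the seed.
let-7a-1-3p: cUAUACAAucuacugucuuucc
let-7c-2-3p: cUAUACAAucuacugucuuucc
let-7f-2-3p: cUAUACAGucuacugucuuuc
let-7f-1-3p: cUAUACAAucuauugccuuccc
let-7b-3p: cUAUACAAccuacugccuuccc
let-7d-3p: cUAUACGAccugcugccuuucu
let-7i-3p: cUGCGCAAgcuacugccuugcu
let-7g-3p: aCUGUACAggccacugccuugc

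The arms of let-7a-1 and let-7c-2 had the same sequence, with 0 mismatches over 22 bases. Their 2 rows are thus not specific to a locus, although their names are, and a read that ends within the mature sequence could come from either hairpin. let-7f-2-3p differed from both by 1 base over 21 (A8G, the base of let-7a-1-3p first, counted from the 5′ end). let-7b-3p and let-7f-1-3p differed by 2 bases (C9U and C13U). let-7d-3p was at least 4 mismatches from every other member, the largest distance among the members that lie in clusters. The seed UAUACAA was shared by 4 members, let-7a-1-3p, let-7b-3p, let-7c-2-3p and let-7f-1-3p. The other 4 each had a seed of their own, UAUACGA in let-7d-3p, UAUACAG in let-7f-2-3p, CUGUACA in let-7g-3p and UGCGCAA in let-7i-3p. The mature let-7g-3p starts 1 base earlier than its relatives, and without that first base it differed from let-7i-3p at 4 of 21 bases.

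The 8 hairpins lie at 5 places in the genome (GRCm38, GENCODE M21). let-7a-1, let-7f-1 and let-7d stand within 2261 bases on the minus strand of chromosome 13, at chr13:48536012-48538272, and overlap exons of the long noncoding RNA gene 6720427I07Rik. let-7c-2 and let-7b stand within 801 bases on the plus strand of chromosome 15, at chr15:85706603-85707403, overlapping exons of the noncoding gene Lncppara. let-7f-2 stands with miR-98, another member of the family, within 976 bases at chrX:151912346-151913321, in an intron of Huwe1, which encodes a ubiquitin ligase. let-7g stands alone at chr9:106178840-106178927 in an intron of Wdr82, a subunit gene of histone methyltransferase complexes, and let-7i at chr10:122985640-122985724 on the minus strand, over the transcribed pseudogene D630033A02Rik. Counting miR-98, 12 hairpins of the family were looked up in this annotation, let-7j not among them, and 9 of the 12 have a 3p row. The 3p arms of let-7a-2, let-7c-1 and let-7e were not analysed here.

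The hairpins of let-7a-1 and let-7c-2, which share their 3p arm but not their 5p arm, and that of let-7d, whose 3p arm led the group, are printed with both mature arms in capitals (94, 95 and 103 bases).
let-7a-1: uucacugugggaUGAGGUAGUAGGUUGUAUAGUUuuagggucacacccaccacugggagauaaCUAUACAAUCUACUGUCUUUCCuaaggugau
let-7c-2: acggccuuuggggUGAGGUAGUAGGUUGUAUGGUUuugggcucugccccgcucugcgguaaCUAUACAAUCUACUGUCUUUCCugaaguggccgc
let-7d: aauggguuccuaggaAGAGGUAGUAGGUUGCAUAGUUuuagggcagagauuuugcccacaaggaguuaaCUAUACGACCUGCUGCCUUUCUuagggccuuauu

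The libraries held 261393 to 463498 reads in small EVs and 236432 to 279737 reads in T cell blasts, recovered from the normalized values, of which 1010 reads in small EVs and 561 in T cell blasts fell on the 8 arms. Levels are given as normalized counts per 1000000 reads (CPM). A count of 0 allows up to 3 reads, that is 6.28 to 10.4 CPM in a small EV library and 11.0 to 14.4 CPM in a T cell blast library, and such limits cover counting error only. The libraries numbered 5 stood apart from the others of their group, with a chi-square per degree of freedom of 42.7 to 60.5 against them and 11.1 or less between the others, so results that rest on them are given without number 5 as well, an alternative chosen after seeing the data. The lymphocyte and blood cell marker miRNAs, 7 of 7 listed, had a sum of 73598 to 99072 CPM for small EVs and of 89252 to 110719 CPM for T cell blasts. Red cell markers (4 of 4 listed) had a sum of 1208 to 1854 CPM for small EVs and of 246 to 258 CPM for T cell blasts, where miR-451a and miR-144-3p were at 0. Stromal and endothelial markers (3 of 5 listed) had a sum of 556 to 817 CPM for small EVs and of 47.9 to 66.0 CPM for T cell blasts, where miR-199a-3p was at 0. The myeloid marker miR-223-3p (1 of 2 listed) was at 15.3 to 20.9 CPM in the small EV libraries and at 0 to 3.67 CPM in T cell blasts. Epithelial markers (5 of 6 listed) had a sum of 410 to 438 CPM for small EVs and of 318 to 348 CPM for T cell blasts. The part of these other cells in the let-7 values was not tested. In such bulk RNA, fewer vesicles or cells of a type and less RNA per vesicle or cell cannot be told apart.

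let-7d-3p made up most of the let-7 passenger reads in both fractions. The 8 arms together reached 731, 771 and 1069 CPM in small EVs 1, 2 and 5, against 753, 774 and 713 CPM in T cell blasts 1, 2 and 5, and the groups overlapped. let-7d-3p took 81.7 to 89.3% of that sum in small EVs and 71.1 to 79.9% in T cell blasts. The 7 other arms together came to 134, 133 and 115 CPM in small EVs, against 165, 224 and 144 CPM in T cell blasts.

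**Figure D1:**
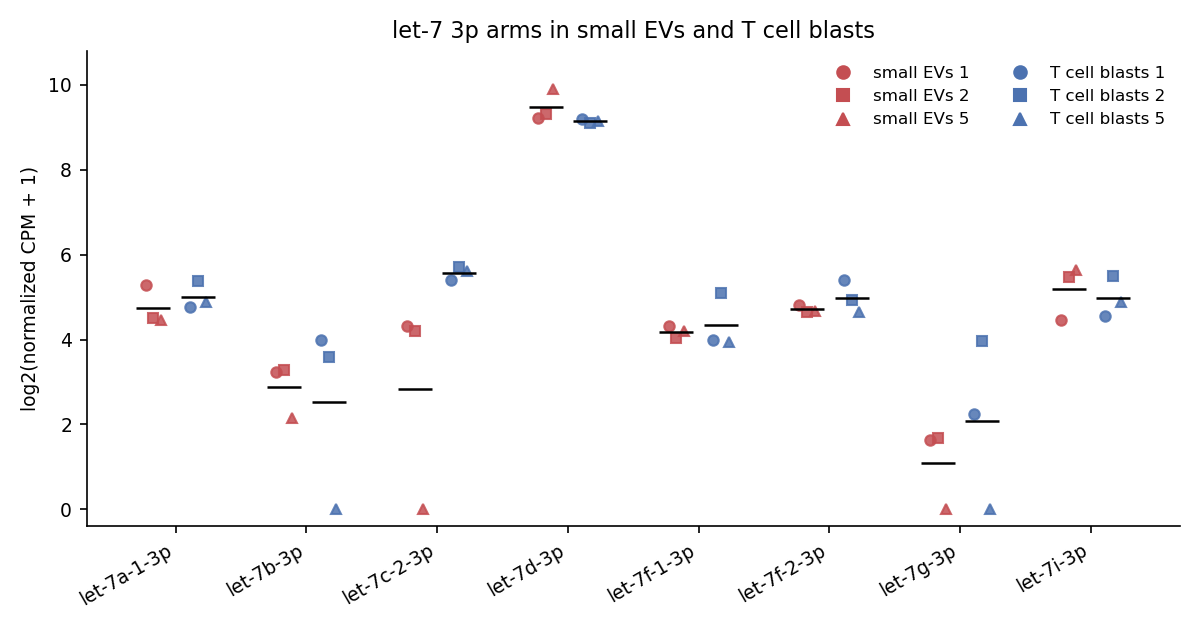
Level of each let-7 3p arm on the log2(normalized CPM + 1) scale, with 1 point per library (red, small EVs; blue, T cell blasts; circle, square and triangle for numbers 1, 2 and 5) and a bar at the group mean. let-7d-3p lies between 550 and 955 CPM in all 6 libraries, and every other arm lies at or below 51.3 CPM.

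Below let-7d-3p, the order of the levels was largely not resolved. In small EVs, let-7i-3p followed with a mean of 37.7 CPM, then let-7a-1-3p (26.8), let-7f-2-3p (25.2), let-7f-1-3p (17.2), let-7c-2-3p (12.1), let-7b-3p (6.86) and let-7g-3p (1.43 CPM). Among these neighbours, let-7f-2-3p and let-7f-1-3p did not overlap over the 3 libraries, nor did let-7b-3p and let-7g-3p, and all others did. The order of let-7f-2-3p and let-7f-1-3p rested on 31 against 21 reads in all and was not tested. The gap between let-7b-3p (lowest 3.47 CPM) and let-7g-3p (highest 2.18 CPM) was 1 read against 1 read in different libraries, so that order was not resolved. In T cell blasts, let-7c-2-3p came second with 46.8 CPM and overlapped neither let-7d-3p above it nor let-7a-1-3p (31.8 CPM) below it. The gap to let-7a-1-3p was narrow, 41.2 against 40.3 CPM, with 11 reads each, and these 2 rows have the same sequence. Their order is thus not a difference between loci. let-7a-1-3p, let-7i-3p (31.7), let-7f-2-3p (31.5), let-7f-1-3p (20.8), let-7b-3p (8.66) and let-7g-3p (6.14 CPM) then each overlapped the next. With the 2 rows of the same sequence, let-7a-1-3p and let-7c-2-3p, summed, that sequence came second in both fractions, with a mean of 38.9 CPM in small EVs, where it overlapped let-7i-3p, and 78.5 CPM in T cell blasts.

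All 8 rows had reads in both fractions. Small EVs were compared with T cell blasts by limma on log2(CPM + 1) across the whole table of 451 miRNAs, and a miRNA was called at a Benjamini-Hochberg adjusted p under 0.2. Of the 8 arms, 0 were called higher in small EVs and 1, let-7c-2-3p, was called lower. At an unadjusted p under 0.05 the number higher was also 0, and edgeR and DESeq2 on the recovered reads called 0 higher as well. Over all miRNAs, 21.1% were called higher and 12.4% lower. The 8 differences, small EVs minus T cell blasts, had a median of -0.21 on the log2 scale, beside 0.017 over all miRNAs. Groups did not overlap for 2 of the 8 arms, let-7d-3p and let-7c-2-3p, beside 34.8% of all miRNAs.

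let-7d-3p, the passenger of the chromosome 13 cluster that was read most, was at 597, 638 and 955 CPM (285, 292 and 275 reads) in small EVs 1, 2 and 5, against 588, 550 and 570 CPM (157, 150 and 119 reads) in T cell blasts 1, 2 and 5. All 3 small EV values lay above the 3 blast values, but small EVs 1 exceeded the highest blast library only narrowly and small EVs 5 stood well above the rest. The means were 730 ± 196 CPM in small EVs and 569 ± 19.1 CPM in T cell blasts (SD, n = 3 each). The log2 difference was 0.33 (95% interval -0.14 to 0.79, limma adjusted p = 0.328), which did not pass the threshold. An exact permutation test gave a 2-sided p of 0.1, the smallest that 3 against 3 allows. Without number 5 in both groups the log2 difference was 0.12 (limma adjusted p = 0.433). When libraries were scaled to a sum of 1000000 it was 0.50 and was called (limma adjusted p = 0.155).

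The other rows named for the chromosome 13 cluster were much rarer, and the sequence of let-7a-1-3p is also that of let-7c-2-3p. let-7f-1-3p was at 18.9, 15.3 and 17.4 CPM in small EVs (9, 7 and 5 reads), against 15.0, 33.0 and 14.4 CPM in T cell blasts (4, 9 and 3 reads). The small EV values fell within the range of the blasts. Its log2 difference was -0.16 (95% interval -1.25 to 0.92, limma adjusted p = 0.867). let-7a-1-3p was at 37.7, 21.8 and 20.8 CPM in small EVs (18, 10 and 6 reads), against 26.2, 40.3 and 28.7 CPM in T cell blasts (7, 11 and 6 reads). The groups overlapped, and the log2 difference was -0.26 (95% interval -1.18 to 0.65, limma adjusted p = 0.72).

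The row that was called was let-7c-2-3p, whose sequence is shared by the hairpins of let-7c-2 on chromosome 15 and let-7a-1 on chromosome 13. It was at 18.9, 17.5 and 0 CPM in small EVs 1, 2 and 5 (9, 8 and 0 reads), against 41.2, 51.3 and 47.9 CPM in T cell blasts 1, 2 and 5 (11, 14 and 10 reads). All small EV libraries were below all blast libraries, and small EVs 5, the shallowest small EV library, held no read of it. The means were 12.1 ± 10.5 CPM in small EVs and 46.8 ± 5.14 CPM in T cell blasts (SD, n = 3 each). let-7c-2-3p fell by 2.73 on the log2 scale (95% interval -5.29 to -0.17, limma adjusted p = 0.133), and the exact permutation test gave its smallest p of 0.1. The pooled reads gave a ratio of small EVs to T cell blasts of 0.297 (exact 95% interval 0.156 to 0.545, counting error only). The size of the log2 difference rested on the empty library: without small EVs 5 it was -1.31 (limma adjusted p = 0.0416). Without number 5 in both groups it was -1.295 (limma adjusted p = 0.057). On the recovered reads of all 6 libraries it was -1.77 in edgeR (adjusted p = 0.0598) and -1.83 in DESeq2 (adjusted p = 0.0523). The call was lost without any single blast library, with limma adjusted p of 0.223, 0.278 and 0.257 without T cell blasts 1, 2 and 5.

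Because let-7a-1-3p and let-7c-2-3p are the same molecule, their rows were also summed. Together they came to 56.6, 39.3 and 20.8 CPM in small EVs 1, 2 and 5 (27, 18 and 6 reads), against 67.4, 91.6 and 76.6 CPM in T cell blasts 1, 2 and 5 (18, 25 and 16 reads). The groups still did not overlap. The shared sequence fell by 1.09 on the log2 scale (95% interval -2.01 to -0.17, limma adjusted p = 0.0967), and the pooled ratio was 0.529 (exact 95% interval 0.356 to 0.783). Adding let-7f-2-3p, which differs by 1 base, gave a log2 difference of -0.81 (limma adjusted p = 0.0851), a sum chosen after seeing the data.

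**Figure D2:**
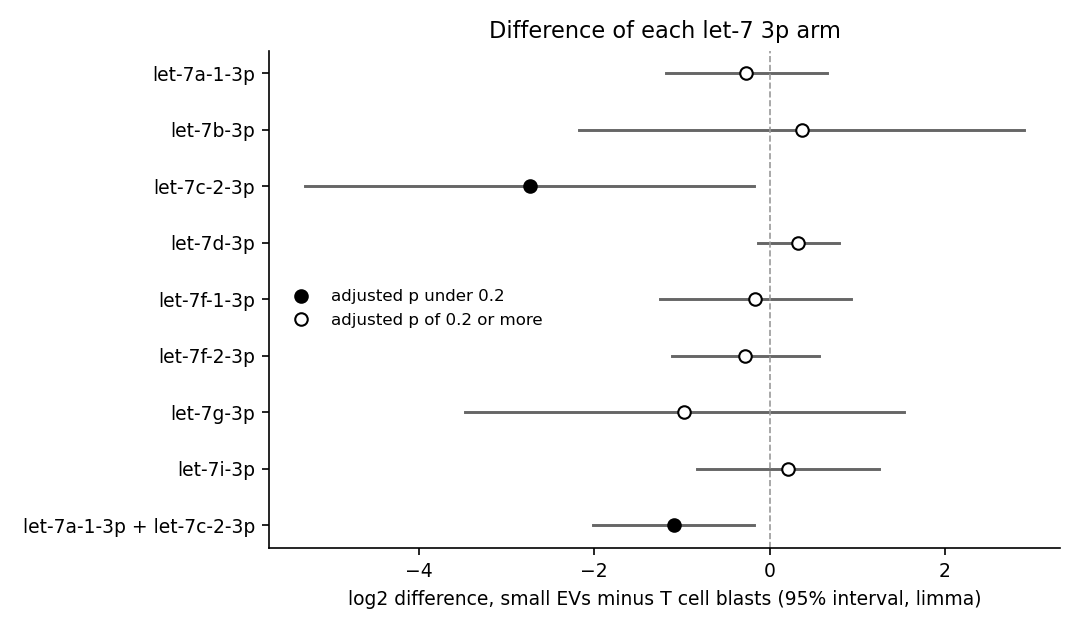
log2 difference of each let-7 3p arm, small EVs minus T cell blasts, with its 95% interval from limma over 451 miRNAs; filled points had an adjusted p under 0.2. let-7c-2-3p (-2.73) and the sum of let-7a-1-3p and let-7c-2-3p (-1.09) lie left of 0 with their whole intervals, and the other 7 intervals include 0.

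The share of the reads of this common sequence that was listed under each of its 2 names did not overlap between the fractions. let-7a-1-3p received 66.7% of them in small EVs 1, 55.6% in small EVs 2 and 100% in small EVs 5, against 38.9%, 44.0% and 37.5% in T cell blasts 1, 2 and 5. Pooled, that was 34 of 51 reads in small EVs (66.7%, Wilson 95% interval 53.0 to 78.0%) and 24 of 59 reads in T cell blasts (40.7%, Wilson 95% interval 29.1 to 53.4%). These 2 intervals overlapped slightly, and they cover counting error only. Each library alone held only 6 to 27 such reads, and the intervals of the single libraries overlapped. The sequence printed above for the mature arms holds no base that could assign a read to 1 of the 2 hairpins. The authors aligned reads with bowtie or BWA and quantified them with RSEM, but do not describe how reads were placed between the 2 names. The cause of the unequal division was not tested.

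**Figure D3:**
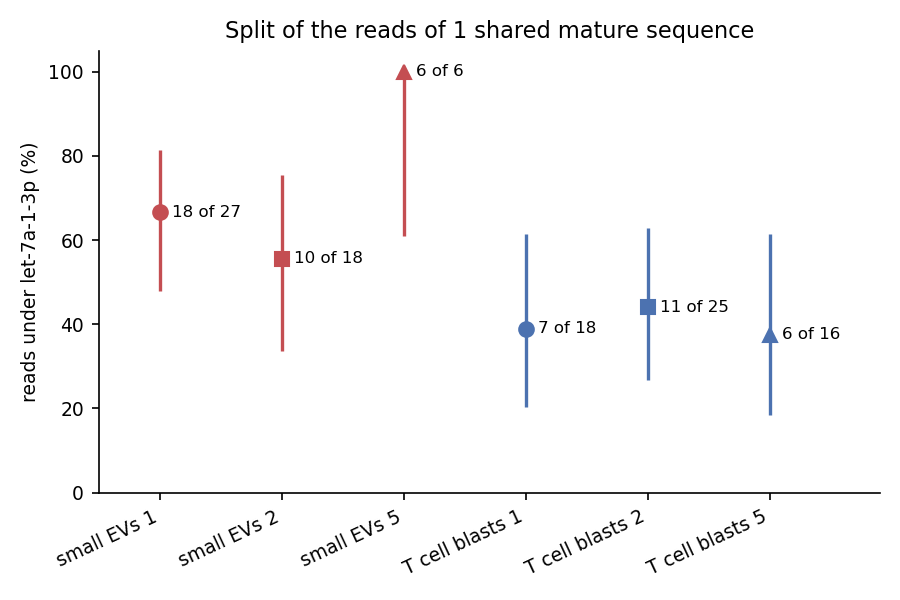
Share of the reads of the sequence common to let-7a-1-3p and let-7c-2-3p that was listed under let-7a-1-3p, in percent, for each library (red, small EVs; blue, T cell blasts), with Wilson 95% intervals and the read counts. The 3 small EV libraries lie between 55.6 and 100%, and the 3 T cell blast libraries between 37.5 and 44.0%.

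let-7b-3p, the neighbour of let-7c-2 on chromosome 15, was close to the limit of detection. It was at 8.38, 8.74 and 3.47 CPM in small EVs (4, 4 and 1 reads), against 15.0, 11.0 and 0 CPM in T cell blasts (4, 3 and 0 reads). The libraries numbered 5 were the lowest of both groups. Its log2 difference was 0.36 (95% interval -2.17 to 2.90, limma adjusted p = 0.878), although the mean CPM was lower in small EVs (6.86 against 8.66 in T cell blasts), since the blast library at 0 weighs more on the log scale. The sign turned with the libraries and the method: the log2 difference was -0.90 without T cell blasts 5, -0.54 without number 5 in both groups and -0.34 in edgeR (adjusted p of 0.348, 0.469 and 0.856). A difference was not detectable at this depth.

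let-7f-2-3p, the passenger of the X-linked pair, was at 27.2, 24.0 and 24.3 CPM in small EVs (13, 11 and 7 reads), against 41.2, 29.3 and 23.9 CPM in T cell blasts (11, 8 and 5 reads). The small EV values were close to each other and within the range of the blasts, with a log2 difference of -0.28 (95% interval -1.12 to 0.56, limma adjusted p = 0.672). Its neighbour miR-98-3p, whose seed is UAUACAA rather than UAUACAG, was at 83.8, 61.2 and 108 CPM in small EVs, against 97.4, 88.0 and 120 CPM in T cell blasts. These groups overlapped too, with a log2 difference of -0.29 (limma adjusted p = 0.559).

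The passengers of the solitary loci were let-7g-3p and let-7i-3p. let-7g-3p was the rarest member, with 1, 1 and 0 reads in small EVs (2.09, 2.18 and 0 CPM), against 1, 4 and 0 reads in T cell blasts (3.75, 14.7 and 0 CPM). The pooled ratio was 0.245 with an exact 95% interval of 0.0233 to 1.50, and its log2 difference was -0.97 (limma adjusted p = 0.628). Without T cell blasts 5, where it was at 0, it was -2.01 and was called (limma adjusted p = 0.174), a call that rests on 7 reads in all. Without T cell blasts 2, which held 4 of its 5 blast reads, the log2 difference was -0.023 (limma adjusted p = 0.987), and without number 5 in both groups -1.46 (limma adjusted p = 0.284). let-7i-3p was at 20.9, 43.7 and 48.6 CPM in small EVs (10, 20 and 14 reads), against 22.5, 44.0 and 28.7 CPM in T cell blasts (6, 12 and 6 reads). In both groups library 1 was the lowest, and the log2 difference was 0.21 (95% interval -0.83 to 1.25, limma adjusted p = 0.812). It ran from -0.011 without small EVs 5 to 0.58 without small EVs 1, and was -0.054 without number 5 in both groups (limma adjusted p = 0.97).

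The passenger arms were next set against the guides of the same hairpins. Of the 10 let-7 and miR-98 5p rows, 4 were called higher in small EVs and 1 lower, at limma adjusted p under 0.2, beside 21.1% of all miRNAs called higher and 12.4% lower, and their median log2 difference was 0.036. The 4 that rose were let-7a-5p by 0.63 on the log2 scale (limma adjusted p = 0.0514), let-7b-5p by 0.50 (0.053), let-7c-5p by 0.62 (0.0421) and miR-98-5p by 0.66 (0.0376). let-7d-5p, the guide of let-7d, was at 1598, 1529 and 1535 CPM in small EVs, against 1925, 1873 and 2106 CPM in T cell blasts. It fell by 0.34 on the log2 scale (limma adjusted p = 0.0866), and its groups did not overlap. This call was lost with libraries scaled to a sum of 1000000, with DESeq2 and without small EVs 2. The most abundant guide, let-7f-5p, lay between 25978 and 41108 CPM in small EVs and between 34197 and 37502 CPM in T cell blasts and was not called (log2 difference -0.09, limma adjusted p = 0.807). let-7g-5p (0.16, limma adjusted p = 0.648), let-7i-5p (-0.09, limma adjusted p = 0.698), let-7e-5p (-0.26, limma adjusted p = 0.744) and let-7j (-0.93, limma adjusted p = 0.554) were not called either.

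let-7d differed from its relatives in how much of its passenger was read. The 3p arm made up 27.2, 29.4 and 38.4% of the let-7d reads in small EVs 1, 2 and 5, against 23.4, 22.7 and 21.3% in T cell blasts 1, 2 and 5. For every other member hairpin the 3p share was at most 3.70% in any library. In let-7c-2 it was 0 to 0.647% in small EVs and 2.51 to 3.01% in T cell blasts, and in let-7b it was 0.535 to 1.41% in small EVs and 0 to 3.70% in T cell blasts. In let-7a-1 it was 0.142 to 0.212% in small EVs and 0.288 to 0.384% in T cell blasts, a share of a guide that let-7a-2 also makes. The guide of let-7c-2 is likewise also made by let-7c-1. In let-7f-1, let-7f-2, let-7g and let-7i the share stayed at or below 0.246% in small EVs and 0.204% in T cell blasts. let-7f-1 and let-7f-2 were each set against the let-7f-5p reads of both. miR-98 had 3.26 to 6.49% in small EVs and 6.65 to 9.06% in T cell blasts.

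Across the 134 arm pairs of the table, the mean log2 ratio of 3p to 5p over the 6 libraries placed let-7d near the middle. Its mean was -1.45, with 64 pairs lower and 69 higher. let-7g (-11.7, with 3 pairs lower), let-7f-1 (-10.8, with 4 lower) and let-7f-2 (-10.2, with 5 lower) were among the pairs with the lowest ratios. let-7i (-9.35) and let-7a-1 (-8.64) had 8 and 11 pairs lower. Both let-7f passengers were set against the same whole let-7f-5p row, and let-7a-1-3p against a guide that let-7a-2 also makes. The same holds for let-7c-2-3p, whose guide let-7c-1 also makes. Those ratios thus do not measure the strand bias of 1 hairpin. let-7g-3p had 0 to 4 reads per library, so its ratio rests in part on the added 1. The mature guides show a further difference: let-7d-5p starts with A and the let-7i guide with U, before the same seed.
let-7d-5p: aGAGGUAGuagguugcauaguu
let-7i-5p: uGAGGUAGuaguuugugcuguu

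**Figure D4:**
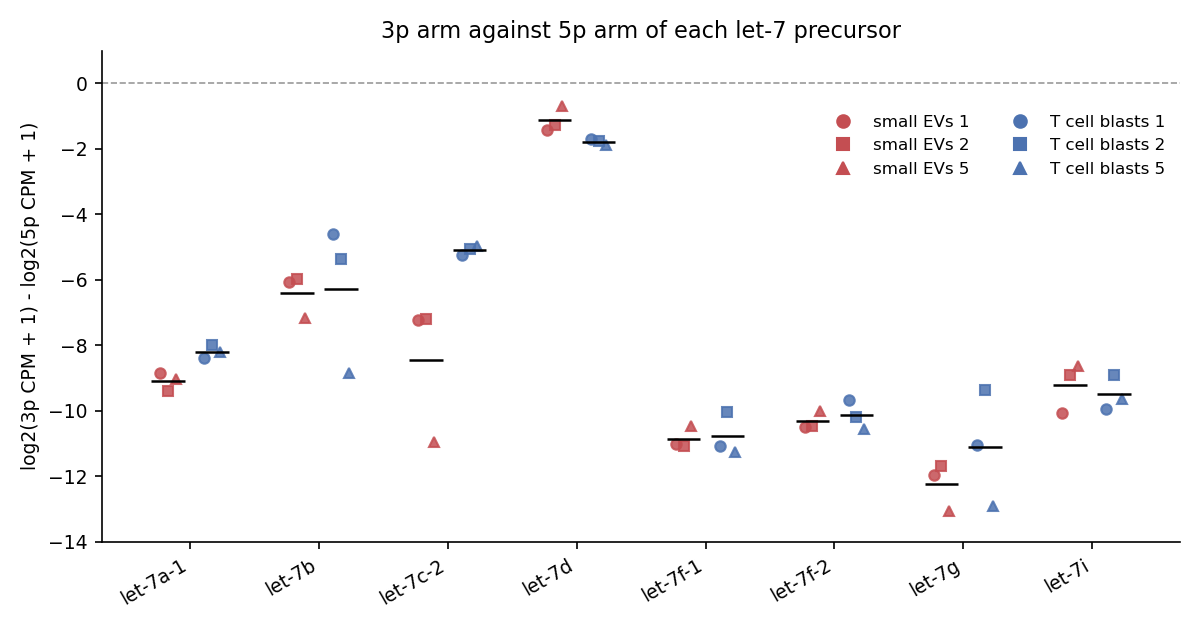
log2(3p CPM + 1) minus log2(5p CPM + 1) for each let-7 hairpin, with 1 point per library (red, small EVs; blue, T cell blasts) and a bar at the group mean; the dashed line marks equal arms. let-7d lies between -1.88 and -0.68 in all 6 libraries, and all other hairpins lie at or below -4.61.

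The log2 arm ratio was compared between the fractions with limma over all 134 pairs. Of the 8 let-7 hairpins, 1 was called lower in small EVs, let-7c-2, and 0 higher, beside 4.48% of all pairs called lower and 12.7% called higher. The unadjusted p was under 0.05 for let-7c-2 and let-7a-1, both lower, and for no hairpin that was higher. The let-7c-2 ratio was -7.23, -7.18 and -10.9 in small EVs 1, 2 and 5, against -5.25, -5.06 and -4.98 in T cell blasts 1, 2 and 5. It fell by 3.36 in small EVs (95% interval -5.87 to -0.84, limma adjusted p = 0.124). Without small EVs 5 the difference was -2.11 (limma adjusted p = 0.0252), and it missed the threshold without T cell blasts 1 (limma adjusted p = 0.261) or 2 (0.264). Without number 5 in both groups the difference was -2.05 (limma adjusted p = 0.0416). The let-7a-1 ratio was -8.84, -9.39 and -9.02 in small EVs, against -8.38, -7.99 and -8.21 in T cell blasts. Its groups did not overlap either, with a difference of -0.89 (95% interval -1.73 to -0.046, limma adjusted p = 0.214), just outside the threshold. It was called with a pseudocount of 5 (limma adjusted p = 0.118), with a mean of at least 10 CPM in both arms (0.121), with libraries scaled to a sum of 1000000 (0.197) and without small EVs 5 (0.185). It was further from the threshold without small EVs 1 (limma adjusted p = 0.299) or 2 (0.531) and without T cell blasts 1 (0.289) or 2 (0.403). With the replicate number as a block the limma adjusted p was 0.282. Of its 2 arms, let-7a-5p rose by 0.63 (limma adjusted p = 0.0514) and let-7a-1-3p fell by 0.26 (0.72). Since both 3p arms are 1 sequence whose reads were divided unequally between the names, neither ratio belongs to its locus alone. Their guides, let-7a-5p and let-7c-5p, are also made by let-7a-2 and let-7c-1. The 2 rows summed against let-7a-5p and let-7c-5p summed, an alternative chosen after seeing the data, gave ratios of -8.49, -8.81 and -9.25 in small EVs 1, 2 and 5, against -7.29, -7.04 and -7.06 in T cell blasts 1, 2 and 5. The difference was -1.72 (95% interval -2.59 to -0.85, limma adjusted p = 0.0426).

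The let-7d ratio went the other way. It was -1.42, -1.26 and -0.68 in small EVs 1, 2 and 5, against -1.71, -1.77 and -1.88 in T cell blasts 1, 2 and 5, with no overlap. The difference was 0.67 (95% interval -0.20 to 1.53, limma adjusted p = 0.329) and was not called over all pairs. It was called when only the 80 pairs with a mean of at least 10 CPM in both arms were fitted (limma adjusted p = 0.154), and was 0.40 without number 5 in both groups (limma adjusted p = 0.42). The ratios of let-7b, let-7f-1, let-7f-2, let-7g and let-7i overlapped between the fractions, with differences of -1.13 to 0.30 and limma adjusted p of 0.531 or more. Without T cell blasts 5, where both 3p arms were at 0, the ratios of let-7b (-1.42) and let-7g (-2.03) were called lower as well (limma adjusted p = 0.154 each). Without number 5 in both groups let-7b was called lower (-1.04, limma adjusted p = 0.172) and let-7g was not (-1.625, limma adjusted p = 0.254). With both let-7f passengers summed against let-7f-5p the difference was -0.18 (limma adjusted p = 0.826). For miR-98 it was -0.96 (limma adjusted p = 0.244).

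Of the 8 rows of other miRNAs from let-7 clusters, miR-98-3p among them, 3 were called higher in small EVs and 0 lower, beside 21.1% and 12.4% of all miRNAs. miR-125b-5p was at 41.9, 48.0 and 27.8 CPM in small EVs and at 0 in all 3 T cell blast libraries (limma adjusted p = 0.0007), and miR-99a-5p at 10.5, 24.0 and 17.4 CPM in small EVs and likewise at 0 in T cell blasts (limma adjusted p = 0.00335). miR-99a-5p had 5, 11 and 5 reads in small EVs 1, 2 and 5. Its value in small EVs 1 lay below the 11.0 to 14.4 CPM that a 0 in a blast library allows. miR-100-5p was at 64.9, 100 and 90.3 CPM in small EVs, against 0, 7.33 and 0 CPM in T cell blasts (limma adjusted p = 0.00543). These 3 are made beside let-7a-2 and let-7c-1, the hairpins whose guides are also those of let-7a-1 and let-7c-2. The red cell and stromal markers given above were higher in the same libraries, and their part in these values was not tested. miR-99b-5p and miR-125a-5p, which are made beside let-7e, had log2 differences of -0.009 (limma adjusted p = 0.982) and -0.018 (limma adjusted p = 0.968). miR-99b-3p and miR-125a-3p had at most 2 reads in any library.

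By pattern over the 6 libraries, the 3 miRNAs most like let-7d-3p among 278 with a mean of at least 10 CPM were miR-574-5p (Pearson r = 0.95), miR-363-3p (0.95) and miR-3074-5p (0.94). The correlation was taken on log2(CPM + 1), all points share the same libraries and scaling, and it is a description only. All 3 were highest in small EVs 5, as let-7d-3p was: miR-574-5p was at 44.0, 43.7 and 101 CPM in small EVs, against 37.5, 33.0 and 47.9 CPM in T cell blasts. miR-363-3p was at 987, 976 and 1194 CPM in small EVs, against 1000, 894 and 914 CPM in T cell blasts.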

How the data were processed

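Small RNA of 3 small EV and 3 T cell blast libraries was grouped by the sample labels. The authors trimmed reads with Cutadapt (reads under 20 bp discarded), aligned them to mature mouse miRNAs of miRBase with bowtie or BWA, quantified them with RSEM 1.17 and scaled them by edgeR's TMM method. The deposited signal values are therefore CPM after TMM scaling. No genome build is involved. Of the values, 100% were whole multiples of 1 read (within 0.05), and reads were recovered from them. Small EVs and T cell blasts were compared by limma 3.58.1 (R 4.3.3, trend) on log2(CPM + 1) over 451 miRNAs, and by exact permutation. The log2 ratio of 3p to 5p CPM was compared likewise over 134 pairs. The added 1 shrinks changes of low values, but a library at 0 can weigh more on this scale. Recovered reads tested with edgeR 4.0.16 or DESeq2 1.42.0, other scalings, pseudocounts, filters, blocks and left-out libraries were alternatives. The labels name no separate cultures, while the paper describes its cell and exosome sequencing as 3 independent experiments. The p-values measure the spread between these libraries. Same-numbered libraries deviated together (correlations of 0.15, 0.16 and 0.34 across 284 miRNAs), but small EVs 1 with T cell blasts 2 (0.17) and small EVs 2 with T cell blasts 1 (0.11) did so too, so the values set only number 5 apart. The main fits have no block. The named miRNAs are the members, the other let-7 and cluster rows, the markers and the 3 most similar patterns. Members and lists were chosen with earlier results of these data known.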

Additional observations from a re-analysis of the deposited data

How the results depend on the processing

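Against 1 let-7 3p arm called lower in small EVs, 0 were called at adjusted p under 0.05, and 0 to 1 when each library was left out in turn. Against 0 called higher, 1 (let-7d-3p) was called with libraries scaled to a sum of 1000000. Scaling moved the median of all miRNAs: it was 0.017 as deposited, 0.19 at a sum of 1000000 and -0.14 when scaled to miRNAs under 5%. Against 1 arm ratio called, 2 were called with a pseudocount of 5, 3 with a mean of at least 10 CPM, 2 at a sum of 1000000, 2 without number 5 in both groups and 0 at adjusted p under 0.05, with 0 to 3 without each library. Of the 5p arms, 4 higher became 2 at adjusted p under 0.05 and 3 when scaled to miRNAs under 5%, and 1 lower became 0 at a sum of 1000000, 0 with DESeq2, 0 at adjusted p under 0.05 and 2 when scaled to miRNAs under 5%, with 0 to 2 without each library. The log2 ratio of the summed 3p arms was 0.20, between 0.0086 (without small EVs 5) and 0.30 without each library, and -0.023 without number 5 in both groups. The causes of these moves were not tested. With the replicate number as a block, let-7c-2-3p had an adjusted p of 0.0428 in limma and 0.000935 in edgeR, its arm ratio one of 0.173, and the block changed no other call of a let-7 arm. At 0 to 20 reads per library, 7 of the 8 arms were too shallow for small differences to be detected.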

Other observations

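The table held 1 other pair of rows with the same mature sequence, miR-199a-3p and miR-199b-3p. In small EVs 1, 2 and 5 the first name received 7 of 17, 9 of 13 and 2 of 5 of their reads, 18 of 35 in all (51.4%, Wilson 95% interval 35.6 to 67.0%), and T cell blasts held no read of either.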
